A study of Mus musculus with 4 samples.

Results

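The genes described here are 43 genes of the ATF4 programme: regulators and stress outputs, enzymes of amino acid and folate metabolism, amino acid transporters, and cytosolic tRNA synthetases. They were taken by gene symbol from a table of 33677 symbols, and all 43 were found and passed the filter on low counts. They were measured in PyMT-A, a mouse mammary tumour cell line of FVB/NJ background. Jagged1 cells were infected with the PMSCV-Jagged1 virus, which adds a gene for a Notch ligand (2 libraries, Jagged1 1 and Jagged1 2), and vector cells with the PMSCV-puro virus (2 libraries, vector 1 and vector 2). Cells of both lines grew in DMEM with serum and antibiotics, and no other treatment is named. The labels do not say whether the infected cells were kept as pools or clones, nor that the replicates were separate cultures, so p-values measure only the spread between these libraries, which may be technical. RNA was sequenced after poly(A) selection.

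ATF4 is a transcription factor whose own mRNA is translated best when general translation is slowed by phosphorylation of the initiation factor eIF2. Kinases that sense unfolded proteins, missing amino acids, viral RNA or haem shortage carry out that phosphorylation. ATF4 pairs with C/EBP family proteins on a composite DNA element and switches on genes that make, import and load amino acids onto tRNA. Tumour cells are known to use this programme to keep up their supply of serine, asparagine and cysteine.

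Across the 43 genes the Jagged1 cells were lower almost throughout, by a modest amount. The log2 fold change (Jagged1 over vector, edgeR) was below 0 in 42 genes and above 0 in 1, against 50.5% below 0 among all 13299 genes tested. The lines did not overlap, with each Jagged1 library lower than each vector library, in 33 of 43 genes, where the share over all genes tested was 15.1%. The opposite held for 0 of 43, against 13.9%. With 1 library left out, the lines were apart in the lower direction in 36 members without Jagged1 1 (36% over all genes), 39 without Jagged1 2 (32.9%), 38 without vector 1 (26.5%) and 35 without vector 2 (32.8%). The median log2 fold change of the members was -0.49, against -0.0025 for all genes tested, which places the middle member at 0.711 times its vector level. No member passed the Benjamini-Hochberg threshold of 0.05 over all genes in edgeR's quasi-likelihood test: 0 of 43, where 0.00752% of all genes were called, namely Jag1 alone. At an unadjusted p under 0.05 stood 23 members, all lower in Jagged1 cells, against 2.15% of all genes tested in that direction and 1.8% in the other. DESeq2 called 2 members (Chac1 and Trib3), where it called 0.211% of all genes as lower. The members were chosen with earlier results of these data known, so their shared direction is not independent evidence.

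The libraries held 20835208 and 13549258 counts for Jagged1 1 and 2, and 15609720 and 12136227 for vector 1 and 2. Jag1 had 5676 and 4493 counts in the Jagged1 libraries and 159 and 112 in the vector libraries, in accord with the labels. The first principal component, with 51.6% of the variance, separated the libraries numbered 1 from those numbered 2, and the line followed on the second, with 32.4%. Of 10 mammary epithelial markers 8 passed the low-count filter, 4 lower and 4 higher in Jagged1 cells, and the 10 summed to 6411 and 5023 CPM (counts relative to library size, with TMM scaling) in Jagged1 1 and 2, against 6916 and 5494 CPM in vector 1 and 2. Among them Krt19 and Krt5 were at or near 0 in all 4 libraries. Of 8 fibroblast markers 2 passed, and the 8 together summed to 10.5 and 69.2 CPM in Jagged1 1 and 2, against 4.43 and 7.003 in vector 1 and 2, with Lum at 0 in all libraries. Col1a1, at 27.2 CPM, and Col1a2, at 20.2 CPM, made up most of that sum in Jagged1 2. Of 10 macrophage markers 4 passed, and the 10 had sums of 174 and 398 CPM in Jagged1 and 210 and 239 CPM in vector cells that were nearly all Cd14; C1qa was at 0 throughout and Ptprc did not exceed 0.0814 CPM. The endothelial list summed to at most 6.35 CPM. The part of such cells in the results was not tested. In bulk RNA, fewer cells of a type and less RNA per cell cannot be told apart.

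**Figure D1:**
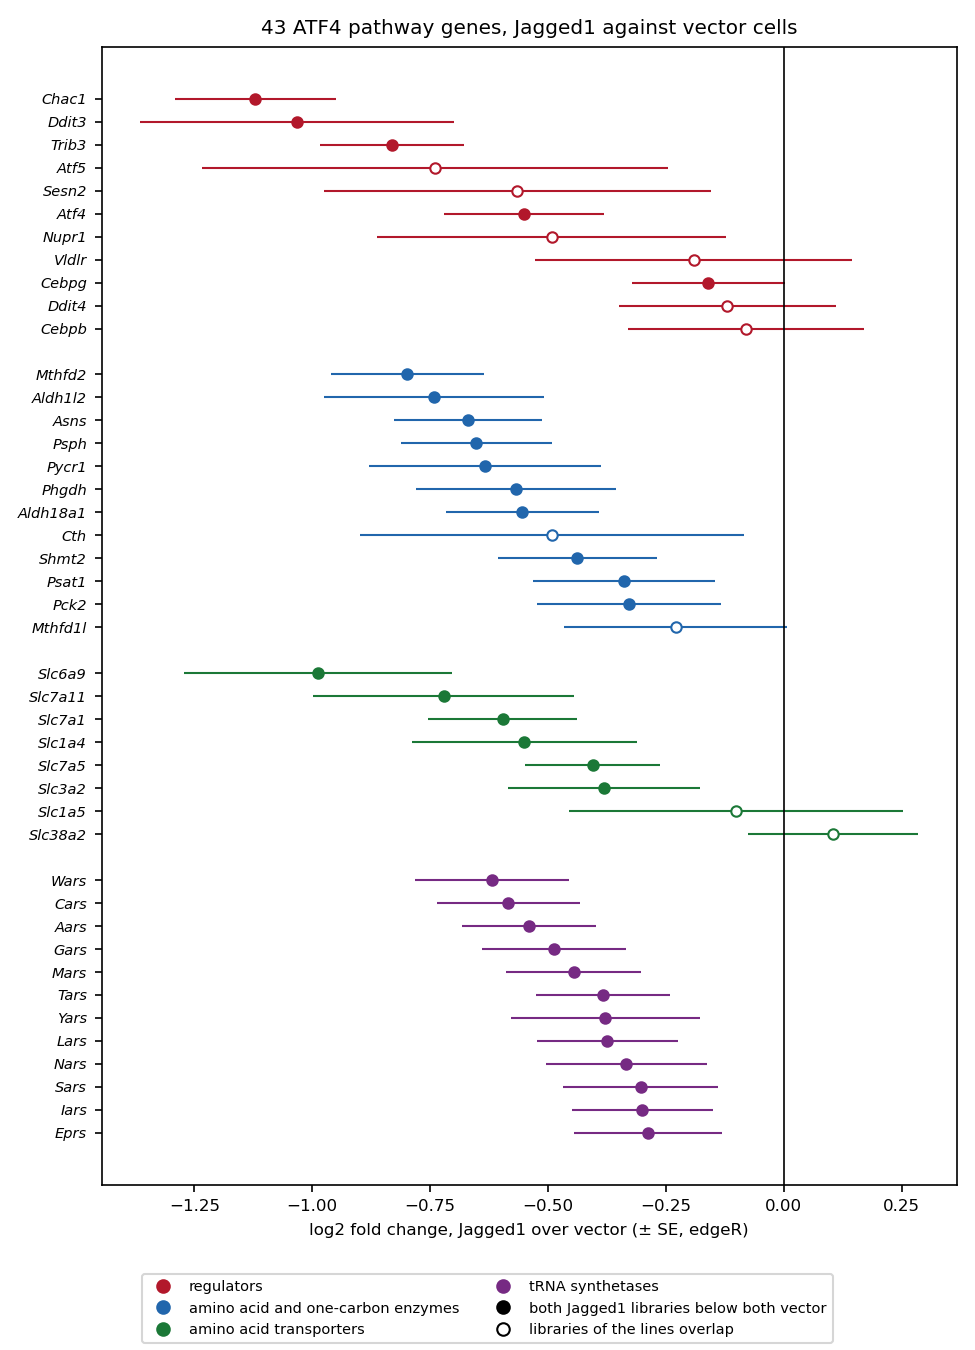
Log2 fold change of each member, Jagged1 over vector, with its standard error (edgeR, 2 libraries per line), grouped and coloured by class. Filled points are the 33 genes whose 2 Jagged1 libraries are each lower than either vector library; open points overlap. Slc38a2, at 0.10, is the member to the right of 0.

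The composite element that ATF4 and C/EBP proteins bind was looked for in the promoters, because this element is what many of the members are known for. The letters searched were TGATGNAA on either strand (TTNCATCA on the other), in windows from 250 bases before to 50 bases after each annotated RefSeq start (GRCm38.p6). Of the members, 35 matched the promoter table by symbol; Aldh1l2, Cth, Slc7a5, Slc1a5, Nars, Wars, Cars and Lars did not. The element stood in 14 of those 35 (40%), against 228 of 8929 tested genes outside the members (2.55%) and 3.97% of all 32851 windows. The members were listed as genes of the ATF4 programme, so this share describes the list and is not a result of the counts. By class it stood in 5 of 8 tRNA synthetases, 4 of 11 regulators, 3 of 10 enzymes and 2 of 6 transporters. The sequences below are those of genes described further on, each 30 bases in the direction of transcription, with the matching letters in capitals.
Chac1 (chr2:119351038-119351067, plus strand, 193 bases before the start): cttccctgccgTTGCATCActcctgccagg
Trib3 (chr2:152344028-152344057, minus strand, after the start): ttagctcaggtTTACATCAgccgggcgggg
Asns (chr6:7693214-7693243, minus strand, 23 bases before the start): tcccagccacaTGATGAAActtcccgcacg
Pycr1 (chr11:120643833-120643862, minus strand, 103 bases before the start): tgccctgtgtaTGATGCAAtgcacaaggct
Slc1a4 (chr11:20332699-20332728, minus strand, 4 bases before the start): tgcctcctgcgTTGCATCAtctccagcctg
Gars (chr6:55037960-55037989, plus strand, 30 bases before the start): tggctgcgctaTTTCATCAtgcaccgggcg
Tars (chr15:11399655-11399684, minus strand, 15 bases before the start): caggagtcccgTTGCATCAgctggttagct
Slc7a11 carried 2 matches in opposite orientation within 49 bases (chr3:50443642-50443690, minus strand): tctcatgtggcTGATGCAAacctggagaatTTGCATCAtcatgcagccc

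Yars, Iars, Nupr1, Pck2 and Vldlr were also among the members with a match. Among members, those with the element had a median log2 fold change of -0.52 (12 of 14 lower without overlap) and those without it -0.45 (15 of 21). Outside the members, the 228 genes with the element had a median of -0.04, and 18.9% of them were lower without overlap, against -0.01 and 15% for the 8701 without. A match is a description of the letters in this window and not a measured site, and its absence says nothing about the factor.

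**Figure D2:**
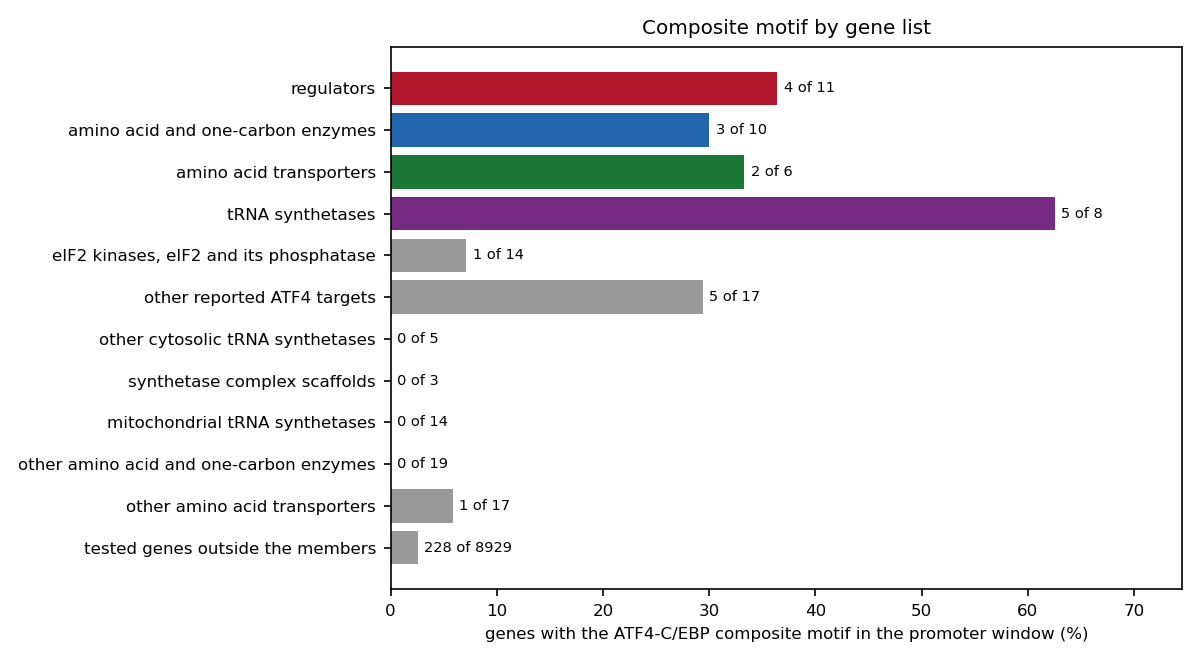
Share of genes with a promoter entry whose window holds the composite element, for the 4 classes of members (coloured) and related gene lists (grey). The tRNA synthetases among the members stand at 62.5%, and the other cytosolic and the mitochondrial synthetases at 0.

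The regulators and stress outputs were lower in Jagged1 cells in 11 of 11 genes, with a median log2 fold change of -0.55, and in 5 of them (45.5%, against 15.1% over all genes) the lines did not overlap. Atf4 itself (chromosome 15, 80255184 to 80257541, plus strand) was at 261 and 309 CPM in Jagged1 1 and 2, against 393 and 442 CPM in vector 1 and 2. Both Jagged1 libraries were lower than both vector libraries, and the replicates of a line differed by less than the lines did. The log2 fold change was -0.55 ± 0.17 (SE; edgeR adjusted p = 1). Since ATF4 is controlled chiefly in translation, the mRNA is not a measure of the protein.

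Chac1, which breaks down glutathione, had the lowest log2 fold change of the members. It was at 19.0 and 19.4 CPM in Jagged1 cells, against 38.6 and 45.0 CPM in vector cells. The Jagged1 libraries were nearly equal and well under either vector library, with a log2 fold change of -1.12 ± 0.17 (edgeR adjusted p = 0.712; DESeq2 adjusted p = 0.00585; edgeR without Jagged1 1, adjusted p = 0.0262; 0.000521 to 1 over all alternatives). Trib3, a pseudokinase that feeds back on ATF4, was at 85.6 and 98.2 CPM in Jagged1 cells, against 163 and 164 CPM in vector cells. The groups were far apart beside the differences within them, with a log2 fold change of -0.83 ± 0.15 (edgeR adjusted p = 0.882; DESeq2 adjusted p = 0.0192; 0.0183 to 1 over all alternatives). Ddit3, which encodes the transcription factor CHOP, was at 11.4 and 19.9 CPM in Jagged1 cells, against 26.5 and 37.3 CPM in vector cells. The groups did not overlap, but Jagged1 2 was closer to vector 1 than to Jagged1 1 (log2 fold change -1.03 ± 0.33, edgeR adjusted p = 1; -0.68 without Jagged1 1 and -1.48 without Jagged1 2). A short stretch of Ddit3, 4.73% of its exon bases, lies opposite to Mars or another gene, and its reads cannot be assigned without strand.

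Other regulators were spread by library number more than by line. Atf5, a relative of ATF4, was at 34.1 and 87.0 CPM in Jagged1 1 and 2, against 73.3 and 128 CPM in vector 1 and 2. Sesn2, which restrains mTORC1 when leucine is short, was at 29.8 and 64.1 CPM in Jagged1 cells, against 54.1 and 84.4 CPM in vector cells. Nupr1, a small stress-induced chromatin protein, was at 40.7 and 78.0 CPM in Jagged1 cells, against 65.3 and 101 CPM in vector cells. In each of these the library numbered 2 was higher than the one numbered 1 in both lines, and Jagged1 2 stood above vector 1, so the groups overlapped. Their log2 fold changes were -0.74 ± 0.49 for Atf5, -0.56 ± 0.41 for Sesn2 and -0.49 ± 0.37 for Nupr1 (edgeR adjusted p = 1 for each). Without Jagged1 1 they were -0.21, -0.11 and -0.09, and without vector 2 they were -0.29, -0.22 and -0.15, in the same order of genes; without Jagged1 2 they were -1.56, -1.21 and -1.03, and without vector 1 they were -1.07, -0.83 and -0.76. In 9 of 11 regulators the library numbered 2 was higher in both lines, and the class median was -0.17 without Jagged1 1, -0.28 without vector 2 and -0.93 without Jagged1 2.

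Cebpb and Cebpg, the C/EBP partners of ATF4, had small log2 fold changes between the lines. Cebpb was at 278 and 406 CPM in Jagged1 1 and 2, against 411 and 312 CPM in vector 1 and 2. Jagged1 was thus the lower line among libraries numbered 1 and the higher line among those numbered 2. Cebpg stood at -0.16 ± 0.16 and Cebpb at -0.08 ± 0.25, the mTORC1 inhibitor gene Ddit4 at -0.12 ± 0.23 and the lipoprotein receptor gene Vldlr at -0.19 ± 0.34 (log2 fold change, edgeR adjusted p = 1 for each). Of these, Cebpg had both Jagged1 libraries under both vector libraries, by a margin of less than 1 CPM, and the sign of the other 3 turned when 1 library was left out. Cebpb was the member with the highest level per exon length, at 227 CPM per kilobase in Jagged1 and 240 CPM per kilobase in vector cells, and 20.7% of its exon bases lie opposite to Tmem189.

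**Figure D3:**
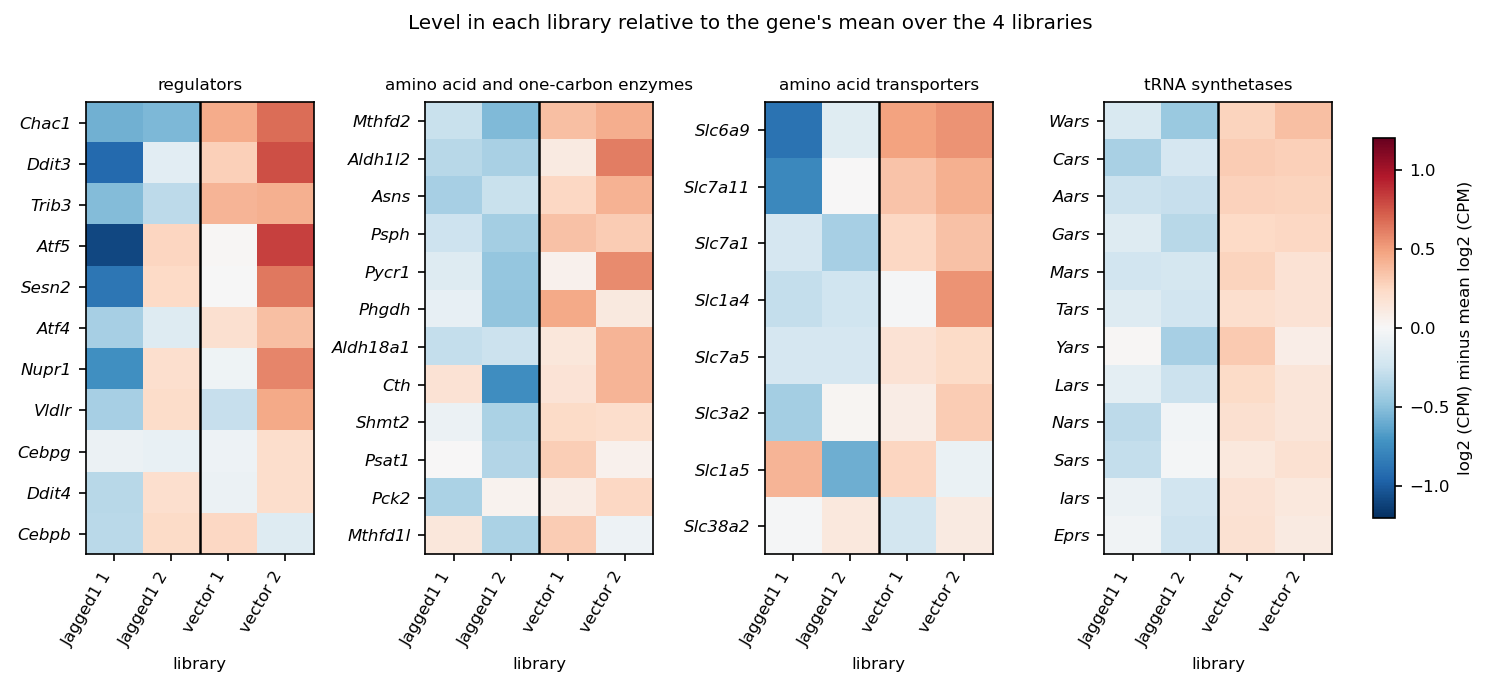
Level of each member in each library as log2 CPM minus the gene's mean over the 4 libraries, by class, with the Jagged1 libraries to the left of the black line. In all 12 tRNA synthetase rows each Jagged1 library is lower than each vector library. The gap is small in some rows, such as Yars (131 CPM in Jagged1 1 and 138 CPM in vector 2). Regulators such as Atf5, Sesn2 and Nupr1 also differ between the libraries of 1 line.

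The enzymes were lower in Jagged1 cells in 12 of 12 genes, with a median log2 fold change of -0.56. In 10 of them (83.3%, against 15.1% over all genes) the lines did not overlap. Of the serine route, 3 genes are members. Phgdh, which takes the first step from glycolysis, was at 412 and 316 CPM in Jagged1 cells, against 602 and 477 CPM in vector cells. Both Jagged1 libraries were lower, and the libraries numbered 1 were the higher ones in each line (log2 fold change -0.57 ± 0.21, edgeR adjusted p = 1; -0.37 without vector 1). Psph, which releases serine in the last step, was at 26.6 and 23.9 CPM in Jagged1 cells, against 40.3 and 39.2 CPM in vector cells. The groups were clearly apart (-0.65 ± 0.16, edgeR adjusted p = 0.914), though 10.4% of the exon bases of Psph lie opposite to Cct6a. Psat1, the middle enzyme, stood at -0.34 ± 0.19 without overlap (unadjusted p = 0.135), and ran from -0.53 without Jagged1 1 to -0.17 without Jagged1 2 (-0.19 without vector 1).

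In mitochondrial folate metabolism, Mthfd2 was at 87.9 and 73.2 CPM in Jagged1 cells, against 137 and 144 CPM in vector cells. Its log2 fold change of -0.80 ± 0.16 was the lowest of the class (edgeR adjusted p = 0.914, and 0.0486 without Jagged1 1; 0.028 to 1 over all alternatives). Aldh1l2, which releases carbon dioxide from formyl-folate, was at 14.4 and 13.8 CPM in Jagged1 cells, against 19.5 and 27.7 CPM in vector cells. The Jagged1 libraries were nearly equal and the vector libraries were not (-0.74 ± 0.23, edgeR adjusted p = 1); without vector 2 the value was -0.48, and 14.1% of its exon bases lie opposite to D10Wsu102e. Shmt2, which passes the carbon of serine to folate, stood at -0.44 ± 0.17 without overlap (-0.29 without Jagged1 2). Mthfd1l, which makes formate, was at 95.4 and 66.8 CPM in Jagged1 cells, against 107 and 83.4 CPM in vector cells, with the libraries numbered 1 higher in both lines, and its groups overlapped (-0.23 ± 0.24).

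Asparagine and proline enzymes had the same direction. Asns, which makes asparagine, was at 126 and 138 CPM in Jagged1 cells, against 198 and 222 CPM in vector cells. Both lines were tight and apart (-0.67 ± 0.16, edgeR adjusted p = 0.914). Aldh18a1, which starts proline synthesis, was at 98.1 and 99.9 CPM in Jagged1 cells, against 132 and 159 CPM in vector cells. Pycr1, which ends it in mitochondria, was at 20.9 and 16.8 CPM in Jagged1 cells, against 24.1 and 34.5 CPM in vector cells. Neither gene overlapped between lines (-0.56 ± 0.16 and -0.63 ± 0.25, edgeR adjusted p = 1 for each), and Pycr1 was at -0.36 without vector 2. Cth, which makes cysteine from cystathionine, was low and scattered, at 5.61 and 2.96 CPM in Jagged1 cells, against 5.55 and 6.60 CPM in vector cells. Its groups overlapped (-0.49 ± 0.41), and the value was -1.03 without Jagged1 1 and -0.11 without Jagged1 2. Pck2, the mitochondrial enzyme that makes phosphoenolpyruvate, stood at -0.33 ± 0.19 without overlap, and was at -0.13 without Jagged1 1 and -0.55 without Jagged1 2.

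The amino acid transporters were lower in 7 of 8 genes, with a median log2 fold change of -0.48. In 6 of them the lines did not overlap (75% of the class, against 15.1% over all genes). Slc6a9, a glycine transporter, was at 9.19 and 15.3 CPM in Jagged1 cells, against 23.7 and 24.7 CPM in vector cells. The vector libraries were nearly equal and both above the Jagged1 libraries, which differed from each other (log2 difference of Jagged1 1 from Jagged1 2, -0.74). The log2 fold change was -0.99 ± 0.28 (edgeR adjusted p = 1), and -0.66 without Jagged1 1. Of the exon bases of Slc6a9, 30.2% lie opposite to other genes. Slc7a11, the cystine importer, was at 28.9 and 49.4 CPM in Jagged1 cells, against 62.6 and 66.3 CPM in vector cells. Jagged1 1 was the lowest library by far (-0.72 ± 0.28, edgeR adjusted p = 1), and the value was -0.38 without Jagged1 1 and -1.15 without Jagged1 2. Slc7a1, which imports arginine and lysine, was at 194 and 168 CPM in Jagged1 cells, against 263 and 284 CPM in vector cells. The groups were well apart (-0.60 ± 0.16, edgeR adjusted p = 0.976).

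Slc1a4, which carries neutral amino acids such as serine and alanine, was at 18.4 and 19.0 CPM in Jagged1 cells, against 22.1 and 32.7 CPM in vector cells. The Jagged1 libraries were lower, with vector 1 close to them (-0.55 ± 0.24, edgeR adjusted p = 1), and without vector 2 the value was -0.25. The partners of the large neutral amino acid exchanger, Slc7a5 (-0.41 ± 0.14) and its heavy chain Slc3a2 (-0.38 ± 0.20), were lower without overlap; Slc3a2 was at -0.18 without Jagged1 1 and -0.61 without Jagged1 2. With every library included, the glutamine transporters stood nearer to 0. Slc38a2, which brings in glutamine with sodium, was at 428 and 472 CPM in Jagged1 cells, against 371 and 467 CPM in vector cells. It was the 1 member with a positive value (0.10 ± 0.18), and that sign turned without vector 1 (-0.03). Slc1a5 was at 28.1 and 14.2 CPM in Jagged1 cells, against 25.3 and 20.1 CPM in vector cells. The Jagged1 libraries stood on either side of the vector libraries (-0.10 ± 0.35). The value for Slc1a5 was -0.69 without Jagged1 1 and 0.30 without Jagged1 2.

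The tRNA synthetases were lower in Jagged1 cells in 12 of 12 genes. In all 12 (100%, against 15.1% over all genes) the lines did not overlap. Their sum was 2617 and 2624 CPM in Jagged1 1 and 2, against 3482 and 3401 CPM in vector 1 and 2, so the sums of a line nearly coincided. Single genes differed in both directions within a line. Nars was at 485 and 590 CPM in Jagged1 1 and 2, and Yars at 131 and 98.9 CPM. The log2 fold changes of the 12 genes lay between -0.62 and -0.29 with a median of -0.38. An unadjusted p under 0.05 (edgeR) was reached by 7 of the 12, against 2.15% of all genes tested in that direction. Wars, for tryptophan, was at 89.8 and 74.96 CPM in Jagged1 cells, against 122 and 131 CPM in vector cells. Cars, for cysteine, was at 116 and 132 CPM in Jagged1 cells, against 188 and 185 CPM in vector cells. Aars, for alanine, was at 246 and 243 CPM in Jagged1 cells, against 357 and 355 CPM in vector cells. In Aars the replicates of each line were almost equal, so the difference between lines stood far outside the spread within them. The 3 log2 fold changes were -0.62 ± 0.16, -0.58 ± 0.15 and -0.54 ± 0.14 (edgeR adjusted p = 0.976 for each). In Aars 14.3% of the exon bases are shared with other genes on the same strand.

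Gars (-0.49 ± 0.15), Mars (-0.45 ± 0.14), Tars (-0.38 ± 0.14), Yars (-0.38 ± 0.20) and Lars (-0.37 ± 0.15), for glycine, methionine, threonine, tyrosine and leucine, came next. Nars (-0.33 ± 0.17), Sars (-0.30 ± 0.17), Iars (-0.30 ± 0.15) and Eprs (-0.29 ± 0.16), for asparagine, serine, isoleucine and the pair of glutamate and proline, were nearest to 0. Per exon length, levels ran from 16.7 CPM per kilobase for Eprs to 123 for Nars in Jagged1 cells, and from 20.4 to 155 in vector cells for the same genes. The class had the smallest differences within a line: the median absolute log2 difference was 0.18 between the Jagged1 libraries and 0.06 between the vector libraries, against 0.55 and 0.40 for the regulators. The class median stayed between -0.46 and -0.33 with any 1 library left out, but single genes moved more. Leaving out Jagged1 1 put Yars at -0.60, and leaving out Jagged1 2 or vector 1 put it at -0.19 or -0.24. Without Jagged1 1, Nars was at -0.20 and Sars at -0.18, and without Jagged1 2, Eprs was at -0.19.

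**Figure D4:**
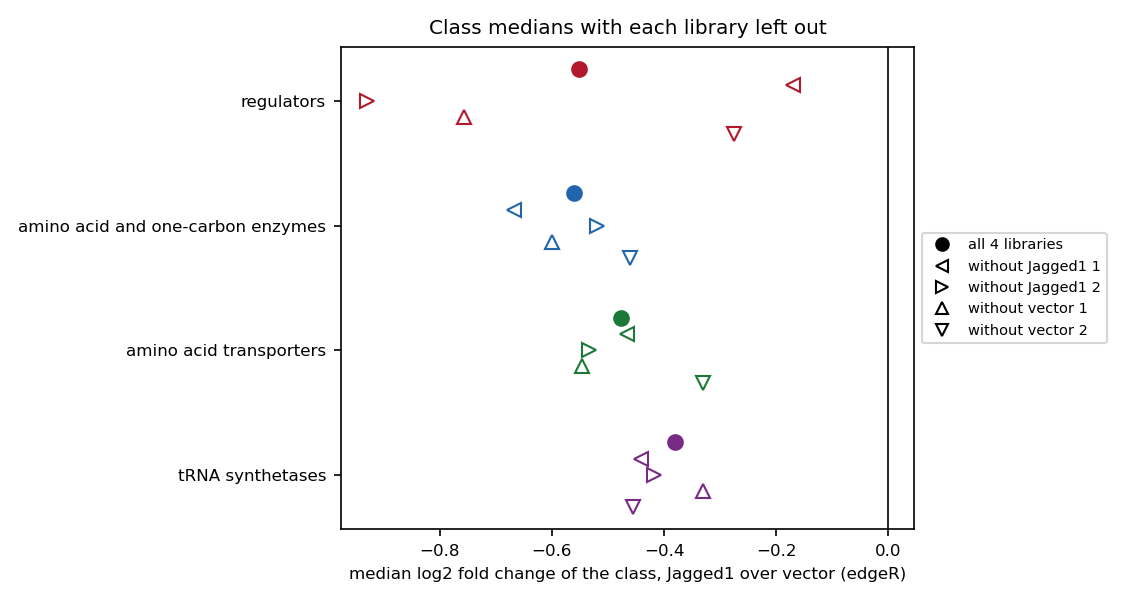
Median log2 fold change of each class (edgeR) with all 4 libraries (filled) and with 1 library left out (open). All medians lie below 0; the regulators run from -0.93 to -0.17, and the tRNA synthetases from -0.46 to -0.33.

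Synthetases outside the members were closer to 0. Of 8 other cytosolic synthetase genes 7 were lower, but without overlap in 2 (15.1% over all genes), and the median log2 fold change was -0.13. Those were Rars, for arginine, at -0.38 ± 0.16, and Farsb, a subunit of the phenylalanine enzyme, at -0.30 ± 0.14, each within the range of the members; Vars, for valine, was at -0.18 ± 0.18. The scaffold genes of the multi-synthetase complex, Eef1e1 (-0.19 ± 0.21), Aimp2 (-0.13 ± 0.27) and Aimp1 (-0.05 ± 0.15), all overlapped between lines. Of 17 mitochondrial synthetases 11 were lower and 6 higher, 3 without overlap in each direction (17.6%, against 15.1% lower and 13.9% higher over all genes), with a median of -0.12. Mars2 stood at 0.30 ± 0.22 and Nars2 at -0.25 ± 0.21. Lars2 was at 232 and 201 CPM in Jagged1 cells, against 954 and 188 CPM in vector cells. Vector 1 alone was high, and without it the log2 fold change was 0.23, against -1.40 ± 0.71 with it. The share of 18S ribosomal RNA was 0.177% and 0.081% in Jagged1 1 and 2, against 0.982% and 0.0735% in vector 1 and 2, and its part in the Lars2 count was not tested. The difference between the member and other synthetase lists was not tested as such.

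**Figure D5:**
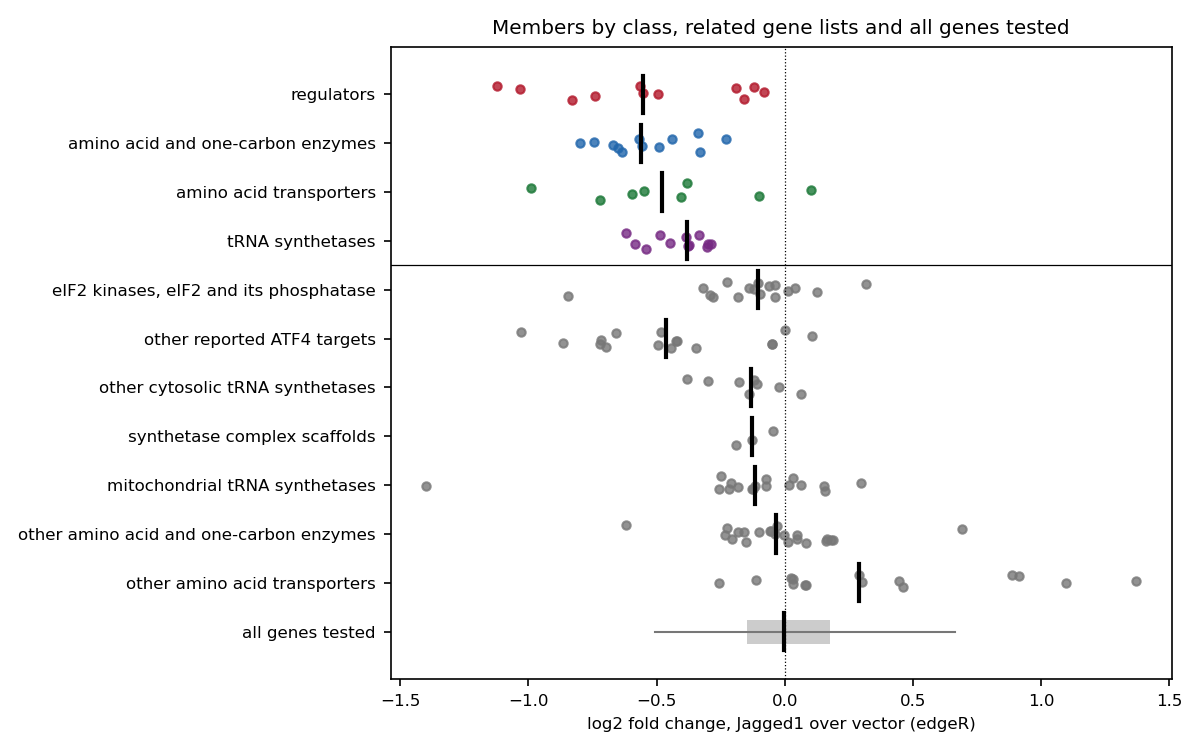
Log2 fold changes (Jagged1 over vector, edgeR) of members by class (coloured), of related lists (grey, tested genes) and of all 13299 genes tested (bar: middle 50%; line: 5th to 95th percentile). Black marks are medians; those of the 4 member classes and of the other ATF4 targets lie between -0.56 and -0.38, while the other lists lie between -0.13 and 0.29.

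Upstream of ATF4, the transcripts of the eIF2 machinery overlapped between the lines in 14 of 17 genes, against 9433 of 13299 over all genes tested. The 17 had a median log2 fold change of -0.10. Without overlap 2 were lower (11.8%, against 15.1% over all genes) and 1 of the 17 was higher (against 13.9% over all genes). The 4 eIF2 kinase genes were all among the 14 that overlapped. Eif2ak4 (the amino acid sensor GCN2) was at -0.10 ± 0.24 and Eif2ak3 (PERK) at -0.04 ± 0.28. Eif2ak1 (the haem-regulated kinase) was at 0.01 ± 0.15 and Eif2ak2 (PKR) at 0.04 ± 0.16. These are mRNA values, and neither kinase activity nor phosphorylation of eIF2 was measured. Lowest in the list was Ppp1r15a, which encodes GADD34, the stress-induced subunit of the eIF2 phosphatase, itself known to be induced by ATF4. It was at 14.95 and 17.3 CPM in Jagged1 cells, against 26.8 and 31.0 CPM in vector cells. The groups did not overlap (-0.84 ± 0.19, edgeR adjusted p = 0.914). The others without overlap were Ppp1cb, a catalytic subunit gene, at 0.32 ± 0.16 and Eif2s2, an eIF2 subunit gene, at -0.29 ± 0.17.

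Other genes reported as ATF4 targets leaned the same way as the members. This list too was chosen with earlier results of these data known, so its direction is not independent evidence. Its median log2 difference of the library numbered 1 from that numbered 2 was -0.50 in Jagged1 and -0.14 in vector cells. Of 19 listed, 16 were tested, 14 of them lower, without overlap in 9 (15.1% over all genes) and a median of -0.46; Gdf15, Fgf21 and Adm2 had too few counts to test. Atf3, a stress transcription factor, stood at -1.03 ± 0.21, Gpt2, which makes alanine, at -0.72 ± 0.18, and Eif4ebp1, a brake on translation, at -0.48 ± 0.15 (edgeR adjusted p = 0.914, 0.925 and 1 in that order). For Atf3 the edgeR adjusted p was 0.015 without Jagged1 1, 0.27 without Jagged1 2, 1 without vector 1 and 0.943 without vector 2, and it ran from 0.00452 to 1 over all alternatives. The composite element stood in 5 of the 17 genes of this list with a promoter entry (29.4%), namely Atf3, Fgf21, Herpud1, Jdp2 and Got1. Among tested genes outside the members the share was 2.55%. This share describes the list and is not a result of the counts.

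Other amino acid genes were mixed. Of 22 other tested enzymes 13 were lower, 5 of them without overlap (22.7%, against 15.1% over all genes). The other 9 were higher, and 1 of the 22 was so without overlap (against 13.9% over all genes). The median log2 fold change was -0.03. Ass1, which makes argininosuccinate, was at -0.62 ± 0.21, and Oat, of ornithine metabolism, at -0.23 ± 0.15. Glul, which makes glutamine, was at 0.69 ± 0.32 (0.16 without Jagged1 2 and 1.08 without Jagged1 1). Of 15 other tested transporters 2 were lower and 13 higher, 5 of them without overlap (13.9% over all genes), with a median of 0.29. Those with the smallest p were Slc6a6, for taurine, at 0.45 ± 0.20, Slc7a2, a cationic amino acid transporter, at 1.37 ± 0.63, and Slc1a2, a glutamate transporter, at 1.10 ± 0.59 (edgeR adjusted p = 1 for each). Slc6a6 was at 0.20 without Jagged1 1, and without Jagged1 2 Slc7a2 was at 0.67 and Slc1a2 at 0.63. The last pair had low counts: Slc7a2 had 22 and 34 counts in Jagged1 cells, against 8 and 10 in vector cells.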

How the data were processed

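The authors deposited unnormalized counts of reads for each gene symbol and library, made with STAR 2.6.0c and featureCounts 1.6.2 on mm10 (GRCm38), per the submitters' processing notes. For the annotation release, the strand setting and reads with several matches, the choice is not given in the sources used here. Genes that overlap or have close copies may therefore share reads. Libraries were grouped by the virus in the labels. Genes were filtered with filterByExpr (minimum count 10), scaled with TMM and tested with edgeR 4.0.16 (glmQLFit, robust; R 4.3.3), Jagged1 against vector, adjusted by Benjamini-Hochberg over all 13299 tested genes with a threshold of 0.05. The SE was derived from the fold change and its F statistic. Levels are TMM-scaled CPM. No permutation test was run, since the smallest exact two-sided p with 2 libraries per line is 0.333. Replicates differed by more than counting noise (chi-square per degree of freedom 50.6 in Jagged1 and 32.3 in vector). A count of 3 was at most 0.244 CPM, which covers counting error only. Exon lengths and overlaps are from GENCODE M21, promoters from RefSeq (GRCm38.p6). The alternatives were DESeq2 1.42.0, limma-voom 3.58.1, other scalings and filters, a replicate block and each library left out. The fitting was tested on simulated counts, with the same dispersion for every gene and changes larger than that of any member. That test does not show how well changes of the members' size are found.

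The members and lists were chosen with earlier results of these data known. Values in every library are given for Atf4, for members whose lines did not overlap with an absolute log2 fold change of at least 0.5, and for up to 3 members per class whose lines overlapped and whose replicates differed most. In each related list up to 3 genes with the smallest p are named. The eIF2 kinases, Cebpb (with its library values), Cebpg, untested genes and members not covered by that rule were named after their values were seen.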

Additional observations from a re-analysis of the deposited data

How the results depend on the processing

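All 42 negative members kept their sign under DESeq2, limma-voom, RLE or total-count scaling, no low-count filter, a minimum mean of 5 CPM and the replicate block. Under these settings the median of all 43 members lay between -0.52 and -0.47. The number of genes called was 1 in the main analysis, 47 with DESeq2 (members called: 2), 169 without the low-count filter (members called: 5, namely Chac1, Ddit3, Mthfd2, Slc6a9 and Trib3, where 0.276% of genes were called lower) and 17 with the replicate number as a block (members called: 0). With 1 library left out, where the lone library is assumed to vary like the other line, it ran from 0 to 193, and the members called from 0 to 2 (Chac1 and Mthfd2 without Jagged1 1, where 0.365% of genes were called lower). Without vector 1 or vector 2 it was 0, Jag1 included. The cause was not tested. The members' median ran from -0.514 to -0.423 (without vector 2). With 1 library left out 37 of 43 members kept their sign; Cebpb ran from -0.38 to 0.16, Ddit4 from -0.41 to 0.12, Vldlr from -0.53 to 0.21, Mthfd1l from -0.51 to 0.0044, Slc1a5 from -0.69 to 0.30 and Slc38a2 from -0.031 to 0.27. Deviations from the group means of equally numbered libraries correlated at 0.43 across genes, but with 2 pairs and no label on shared handling, the numbers do not pair the libraries. Low counts limit Cth, at 2.96 to 6.60 CPM.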
